A study of Mus musculus with 12 samples.

Results

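The genes described here encode subunits of the mitochondrial respiratory chain and ATP synthase, measured in RNA of whole mouse lung. They were taken by gene name on the array (the Nduf, Sdh, Uqcr, Cox4 to Cox8 and Atp5 families) and kept where their probe was well above the local background on at least 4 of 12 arrays. This gave 79 of the 19825 genes kept on these arrays, from 107 of 110 matching probes, and each of the 79 was well above background on all 12 arrays. Cox8c, named as a cytochrome c oxidase subunit gene, was the gene left out, and the other probes left out were second probes of Ndufs1 and Ndufs4. Grouped by family name alone, the 79 genes comprised 35 of complex I, 4 of complex II, 7 of complex III, 17 of complex IV and 16 of complex V. The name thus placed Emc8 with complex IV, Dmac2l with complex V and Ndufa4 with complex I, whatever complex the protein belongs to. The family names also took in genes that may not encode subunits of these complexes. Among them are Emc8 (Cox4nb on the array), part of a membrane protein complex of the endoplasmic reticulum, Dmac2l (Atp5s on the array), and Cox7a2l, which helps to join respiratory complexes.

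Oxidative phosphorylation passes electrons from NADH through complex I, or from succinate through complex II, to complex III and then to complex IV (cytochrome c oxidase), which reduces oxygen. The proton gradient this builds drives ATP synthesis by complex V. Most subunits are encoded in the nucleus and are present in nearly every cell type, but several subunits of cytochrome c oxidase exist as a widely expressed form and a form restricted to some tissues, such as heart and skeletal muscle.

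The mice were C57Bl/6 labelled male and aged 12 weeks, in 3 groups of 4: Rora mutants exposed to cigarette smoke, wild-type (WT) mice exposed to smoke and WT mice in room air. Rora codes for RORalpha, a nuclear receptor whose DNA sites are called ROR elements. Smoke was given on 5 days a week for 4 months, which is longer than the labelled age. The labels do not name the Rora allele or the cells in which it acts, and no room air mutants are among these arrays, so an effect of genotype cannot be told apart from an interaction of genotype with smoke.

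Levels are log2 signal relative to the 75th percentile of the same array, and levels of different genes are not comparable with each other because they come from different probes. Rora itself lay between -1.14 and -0.92 on the mutant smoke arrays, against 1.15 to 1.23 on the WT smoke arrays and 1.08 to 1.16 on the WT room air arrays. Xist, transcribed in female cells from the inactive X, lay between -6.26 and -3.38 in mutant smoke, between -8.17 and -3.18 in WT smoke and between 3.97 and 4.13 in WT room air. The Y-linked gene Ddx3y lay between 0.37 and 0.73 in mutant smoke, between 0.23 and 0.67 in WT smoke and between -8.80 and -6.51 in WT room air. The room air arrays thus went against their label of male, and smoke and sex cannot be told apart in either comparison with room air. Of the spots on an array, 70.1% to 74.8% were well above background, and arrays of 1 group correlated at 0.9940 to 0.9967 over all genes. Since the tissue is whole lung, fewer cells of a type and less RNA per cell cannot be told apart in any value below.

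The comparison of Rora mutant smoke with WT smoke asks what the mutation changes in smoke-exposed lung. Of the 79 genes, Cox8b rose and none fell. Over all genes tested, 2.48% passed as higher and 3.56% as lower (limma, Benjamini-Hochberg adjusted p under 0.05 over 19825 genes). That is 492 higher and 706 lower, a split that turned to 687 higher and 529 lower with median normalization. Cox8b, Cox6a2 and Cox6b2 had higher values on every mutant array than on any WT smoke array, and Cox4i2 and Ndufs3 had lower ones. These 5 of 79 genes compare with 13.4% of all genes whose arrays did not overlap. Without adjustment, 3 of the 79 genes had a p under 0.05, or 3.80%, against 21.2% of all genes.

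Cox8b is the isoform of cytochrome c oxidase subunit 8 that mouse heart, skeletal muscle and brown fat express, while Cox8a is the widely expressed form. The Cox8b probe lies at chr7:140750273-140750332 (mm8). Cox8b had levels of 1.18, 0.77, 1.01 and 0.86 in mutant smoke, against 0.65, 0.19, 0.46 and 0.50 in WT smoke and 0.73, 0.71, 0.39 and 0.67 in WT room air. The mutant arrays lay above all WT smoke arrays and all room air arrays, and the smoke and room air arrays of WT mice overlapped. Cox8b was 1.42-fold higher in mutant smoke than in WT smoke, a log2 change of 0.51 with a standard error of 0.12 and a 95% interval of 0.25 to 0.77 (limma, adjusted p = 0.0285, n = 4 each). Within each of the 3 slides, which rest on single mice of at least 1 group, the log2 difference was 0.54, 0.43 and 0.48, and a fit that blocked on slide gave 0.51 (adjusted p = 0.0257). The call was lost with normexp background correction (adjusted p = 0.369), with no filter on dim probes (0.0572), with only the 8 arrays compared in the fit (0.0573), and without any of 6 single arrays: mutant replicates 1, 3 and 4 and WT smoke replicates 2, 3 and 4 (0.0524 to 0.0685). Cox8a had levels of 5.10, 5.14, 5.00 and 4.91 in mutant smoke and 5.04, 5.00, 4.90 and 5.15 in WT smoke, and its log2 difference was 0.01 with a 95% interval of -0.15 to 0.18.

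The other muscle isoforms lay in the same direction without passing. Cox6a2, the heart and skeletal muscle form of subunit 6a, had levels of 3.12, 2.86, 3.13 and 2.87 in mutant smoke, against 2.79, 2.30, 2.64 and 2.64 in WT smoke and 3.09, 2.82, 2.71 and 3.01 in WT room air. Its mutant arrays lay above every WT smoke array but among the room air arrays, with a log2 difference of 0.40 between mutant and WT smoke (adjusted p = 0.0695). The widely expressed partner Cox6a1 differed by -0.04 (adjusted p = 0.739). Cox7a1, the muscle form of subunit 7a, had levels of 2.45, 2.28, 2.59 and 2.22 in mutant smoke, against 2.40, 1.60, 2.23 and 2.14 in WT smoke and 2.39, 2.12, 2.03 and 2.41 in WT room air. WT smoke replicate 2 was the lowest of the 12 arrays for Cox7a1, as it was for Cox8b and Cox6a2. The mutant and WT smoke values of Cox7a1 overlapped, with a log2 difference of 0.29 (adjusted p = 0.336), and Cox7a2, its partner, differed by -0.03 (adjusted p = 0.872). Set against their partners on the same arrays, Cox8b changed by 0.50 more than Cox8a and Cox6a2 by 0.44 more than Cox6a1. Each difference had the smallest p that an exact two-sided permutation test of 4 arrays against 4 allows, 0.0286, which became 0.143 after adjustment over the 15 pairs and comparisons computed.

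**Figure D1:**
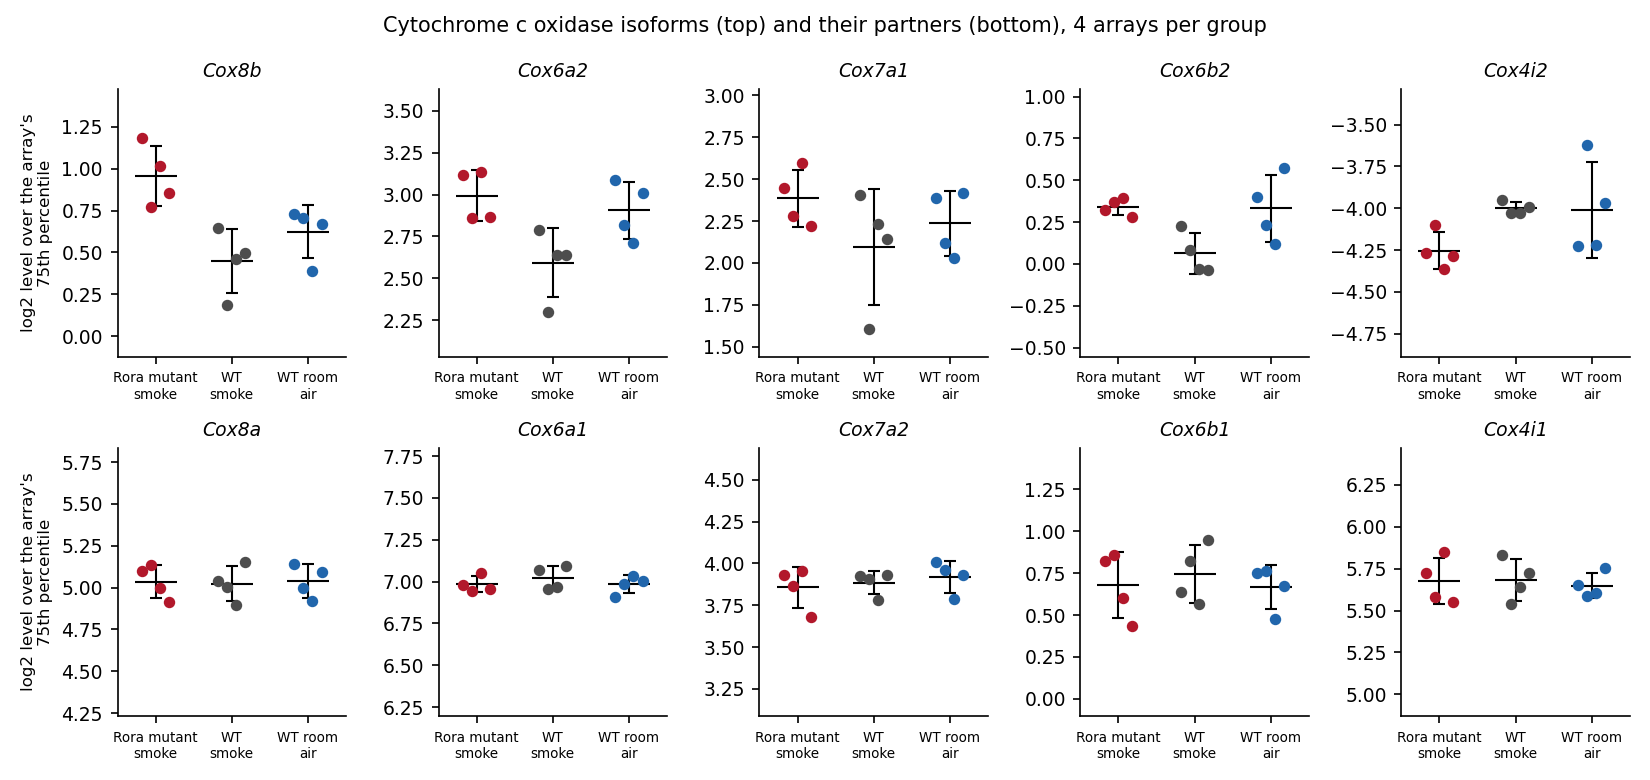
Levels (log2 over the array's 75th percentile) of 5 cytochrome c oxidase isoforms in the top row and their widely expressed partners in the bottom row, for Rora mutant smoke, WT smoke and WT room air. Points are single arrays, bars are the mean and SD of 4 arrays, and every panel spans the same height on the log2 axis; the mutant arrays of Cox8b, from 0.77 to 1.18, lie above the WT smoke arrays, from 0.19 to 0.65, while Cox8a overlaps.

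Cox6b2, a form of subunit 6b best known from testis, had levels of 0.32, 0.37, 0.39 and 0.28 in mutant smoke, against 0.23, 0.09, -0.03 and -0.04 in WT smoke and 0.40, 0.23, 0.12 and 0.57 in WT room air. Its mutant arrays lay above the WT smoke arrays and within the range of the room air arrays, with a log2 difference of 0.28 between mutant and WT smoke (adjusted p = 0.111). Cox6b1, the widely expressed form, differed by -0.07 (adjusted p = 0.804). Cox4i2, the isoform of subunit 4 known for its expression in lung, had levels of -4.27, -4.10, -4.36 and -4.28 in mutant smoke, against -3.95, -4.03, -4.03 and -3.99 in WT smoke and -4.23, -3.62, -4.22 and -3.97 in WT room air. The mutant arrays lay below the WT smoke arrays and overlapped the room air arrays, with a log2 difference of -0.25 from WT smoke (adjusted p = 0.243) that turned to 0.36 with normexp (adjusted p = 0.627). Against WT room air the Cox4i2 difference was -0.24 (adjusted p = 0.187), and 0.09 with normexp. Cox4i1, the widely expressed form, differed by -0.01 (adjusted p = 0.977).

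Some markers of other tissues were also higher in mutant smoke than in WT smoke. In that comparison 20% of the cardiac, 40% of the skeletal muscle and 30% of the adipocyte markers were called higher, beside 2.48% of all genes. Of 15 cardiac muscle markers measured, 3 rose in mutant smoke against WT smoke: Mybpc3 by 0.82 (adjusted p = 0.0210), Pln by 0.80 (adjusted p = 0.00592) and Myh7 by 0.38 (adjusted p = 0.0241). They encode a sarcomere protein, a regulator of the calcium pump and a myosin heavy chain. With normexp none of the 3 passed (adjusted p = 0.343, 0.183 and 0.623), while Pln passed in every fit without 1 array. Of 10 skeletal muscle markers, Acta1, Ckm, Myh1 and Myh2 rose, and of 10 adipocyte markers, Cidec, Fabp4 and Retn rose. Of these, Acta1, Myh1, Myh2, Cidec, Fabp4 and Retn each missed the threshold with normexp, with no filter on dim probes and without some single arrays. With slide as a block, 3 cardiac, 2 skeletal muscle and 0 adipocyte markers passed, with adjusted p = 0.0597 for Cidec, 0.0581 for Fabp4 and 0.0662 for Retn. Of the skeletal muscle list, Actn3 (-0.48, adjusted p = 0.0655) and Tnni2 (-0.12, adjusted p = 0.592) lay lower in mutant smoke than in WT smoke. Against WT room air, Actn3, Tnni2 and Myh2 fell in mutant smoke by 0.87, 0.53 and 0.61 on the log2 scale (adjusted p = 0.00171, 0.00759 and 0.0273). That is 30% of the skeletal muscle list, beside 10% of all genes called lower. No skeletal muscle marker rose in that comparison, but with normexp Actn3 and Myh2 turned to 0.09 and 0.19. Of the 15 cardiac markers, Pln (0.74, adjusted p = 0.00290) and Myh7 (0.40, adjusted p = 0.00806) rose against room air and none fell. Of the 10 adipocyte markers, Cidec, Fabp4 and Plin4 rose (0.57, 0.79 and 0.61) and none fell, beside 6.67% of all genes called higher. Under 18 alternatives, Pln, Myh7 and Cidec each passed in 17, Fabp4 in 10 and Plin4 in 8. The summed log2 level of the cardiac list was 26.79 to 31.25 in mutant smoke, 18.04 to 25.55 in WT smoke and 23.62 to 30.12 in WT room air. That of the skeletal muscle list was -31.42 to -29.52 in mutant smoke, -34.98 to -32.54 in WT smoke and -30.27 to -28.76 in WT room air, and that of the adipocyte list was -4.38 to 2.66, -16.08 to -4.61 and -9.52 to -4.33 in the same groups. None of the cardiac markers was at background, and 8 of 10 skeletal and 8 of 10 adipocyte markers were well above background on every array. WT smoke replicate 2 was lowest in all 3 lists. The part of these tissues in the isoform differences was not tested.

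**Figure D2:**
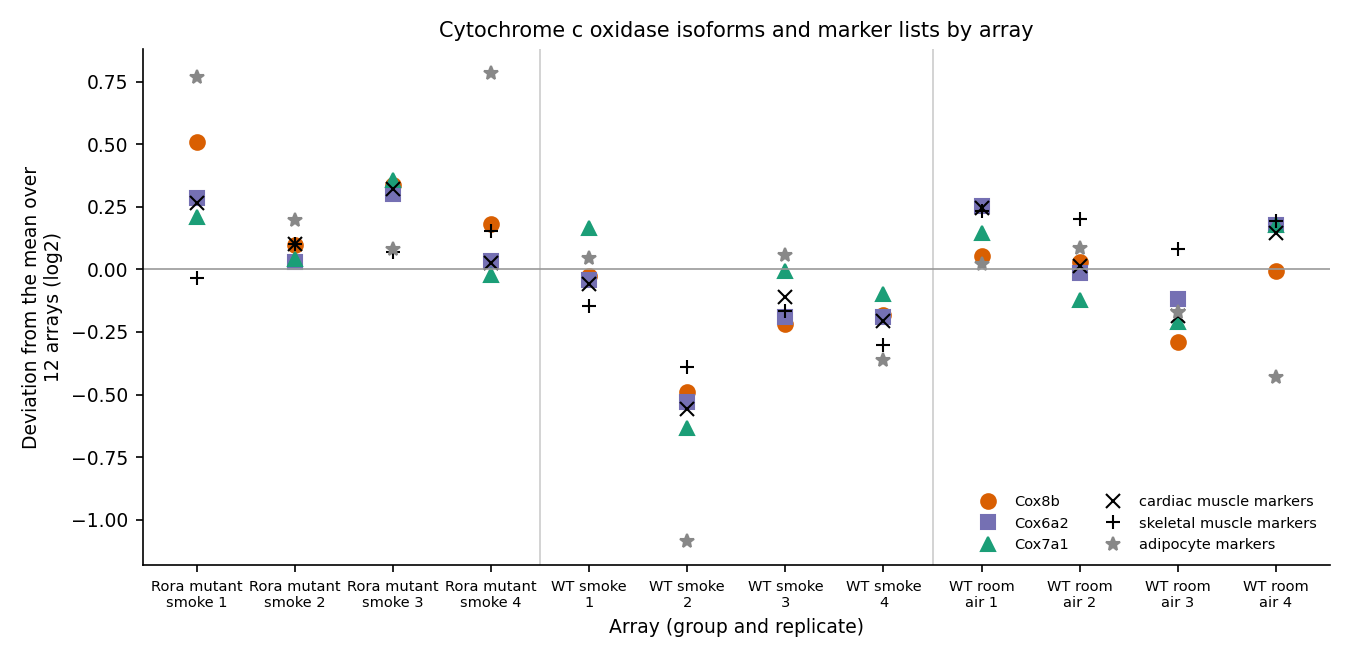
Deviation of each array from the mean over 12 arrays (log2) for Cox8b, Cox6a2 and Cox7a1 and for the mean of the cardiac muscle, skeletal muscle and adipocyte marker lists, by array (group and replicate). WT smoke replicate 2 is the lowest array of all 6, and the cardiac list runs from 0.03 to 0.32 in mutant smoke, from -0.56 to -0.06 in WT smoke and from -0.19 to 0.25 in WT room air.

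Promoters chosen by hand are shown for the pairs Cox8b and Cox8a, and Cox7a1 and Cox7a2, and for Cox6a1 alone. They are shown because Cox8b and the widely expressed forms hold different motifs, so that difference follows from the choice. A role of these motifs in the rise of Cox8b was not tested. The RefSeq promoter table (GRCm38.p6) held 65 of the 79 genes. Cox6a2, Cox4i1 and Cox4i2 were not among them, and the Cox6b pair is not shown. The lines give the 250 bases before the transcription start, on the gene's own strand, of Cox8b at chr7:140900447-140900696 (minus strand), Cox8a at chr19:7217617-7217866 (minus), Cox7a1 at chr7:30183921-30184170 (plus), Cox7a2 at chr9:79759854-79760103 (minus) and Cox6a1 at chr5:115348959-115349208 (minus). Capitals mark CCGGAA, the core bound by ETS factors such as GABP, GCATGCG, a core of the NRF1 site, and CAGCTG, an E-box bound by myogenic factors, on either strand.
Cox8b: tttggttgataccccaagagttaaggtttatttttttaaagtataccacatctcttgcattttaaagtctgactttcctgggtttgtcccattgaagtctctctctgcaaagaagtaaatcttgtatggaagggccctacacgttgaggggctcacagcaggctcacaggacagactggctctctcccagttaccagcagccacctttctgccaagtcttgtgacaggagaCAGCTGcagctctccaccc
Cox8a: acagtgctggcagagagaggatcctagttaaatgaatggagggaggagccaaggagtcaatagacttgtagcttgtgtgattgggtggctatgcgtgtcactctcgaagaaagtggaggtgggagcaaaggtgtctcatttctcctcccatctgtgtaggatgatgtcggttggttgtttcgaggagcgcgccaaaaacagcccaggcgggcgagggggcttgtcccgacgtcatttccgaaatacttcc
Cox7a1: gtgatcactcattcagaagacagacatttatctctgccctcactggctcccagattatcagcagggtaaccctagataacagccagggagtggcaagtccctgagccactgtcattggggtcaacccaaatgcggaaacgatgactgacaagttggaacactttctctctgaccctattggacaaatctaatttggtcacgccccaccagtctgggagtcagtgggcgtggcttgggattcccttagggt
Cox7a2: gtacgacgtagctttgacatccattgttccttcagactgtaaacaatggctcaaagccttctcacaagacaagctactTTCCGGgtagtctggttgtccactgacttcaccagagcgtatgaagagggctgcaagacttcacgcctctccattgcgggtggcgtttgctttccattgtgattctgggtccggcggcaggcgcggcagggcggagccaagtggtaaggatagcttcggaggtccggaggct
Cox6a1: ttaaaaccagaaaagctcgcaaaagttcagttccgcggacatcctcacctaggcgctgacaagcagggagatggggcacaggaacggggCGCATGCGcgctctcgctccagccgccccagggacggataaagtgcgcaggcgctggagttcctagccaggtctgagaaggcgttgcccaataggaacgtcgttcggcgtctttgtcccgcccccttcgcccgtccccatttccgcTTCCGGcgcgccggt
In windows of 300 bases, from 250 before to 50 after the start, Cox8b held 2 copies of CAGCTG and no ETS or NRF1 core, and Cox7a1 held none of the 3 motifs. Cox8a held 3 ETS cores, of which 1 spans the start and 2 lie after it, Cox7a2 held 1 ETS core, and Cox6a1 held 1 ETS core and 2 NRF1 cores that overlap on opposite strands. GABP and NRF1 are known regulators of respiratory chain genes. The ETS core was in 35.7% of the 70 windows of the oxidative phosphorylation genes and in 14.9% of 32851 windows of all genes, and the NRF1 core in 15.7% and 3.58%. The windows of these genes also had more G and C, a median of 57.5% against 52.7%. The E-box was in 8.57% and 16.3%, and AGGTCA, the nuclear receptor half-site that ROR elements contain, in 21.4% and 16.3%. The ROR element consensus was in none of the 70 windows and in 0.384% of all, and the MEF2 consensus in none and in 3.19%.

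Complex I, which oxidises NADH, had no member past the threshold in mutant smoke against WT smoke, and its 35 genes differed by -0.14 (Ndufa5) to 0.16 (Ndufs8) with a median of -0.01. Ndufs3, a core subunit of the module that reduces ubiquinone, had levels of 3.13, 3.05, 3.10 and 3.14 in mutant smoke, against 3.20, 3.18, 3.16 and 3.26 in WT smoke and 3.13, 3.10, 3.08 and 3.03 in WT room air. The WT smoke arrays lay above all 8 others, with log2 differences of -0.10 for mutant smoke against WT smoke (adjusted p = 0.255) and 0.11 for WT smoke against WT room air (adjusted p = 0.198). Complex II, the succinate dehydrogenase that also belongs to the citric acid cycle, ranged from -0.06 (Sdhd) to 0.05 (Sdhc) over its 4 genes. Sdha, its flavoprotein, differed by -0.04 and Sdhb, its iron-sulphur subunit, by -0.03. Complex III ranged from -0.07 (Uqcrb) to 0.07 (Uqcrfs1, the Rieske protein), and complex V from -0.19 (Atp5k) to 0.08 (Atp5pb, Atp5f1 on the array). Atp5g1, Atp5g2 and Atp5g3, which encode the same mature ring subunit of ATP synthase, differed by 0.07, 0.00 and -0.04.

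**Figure D3:**
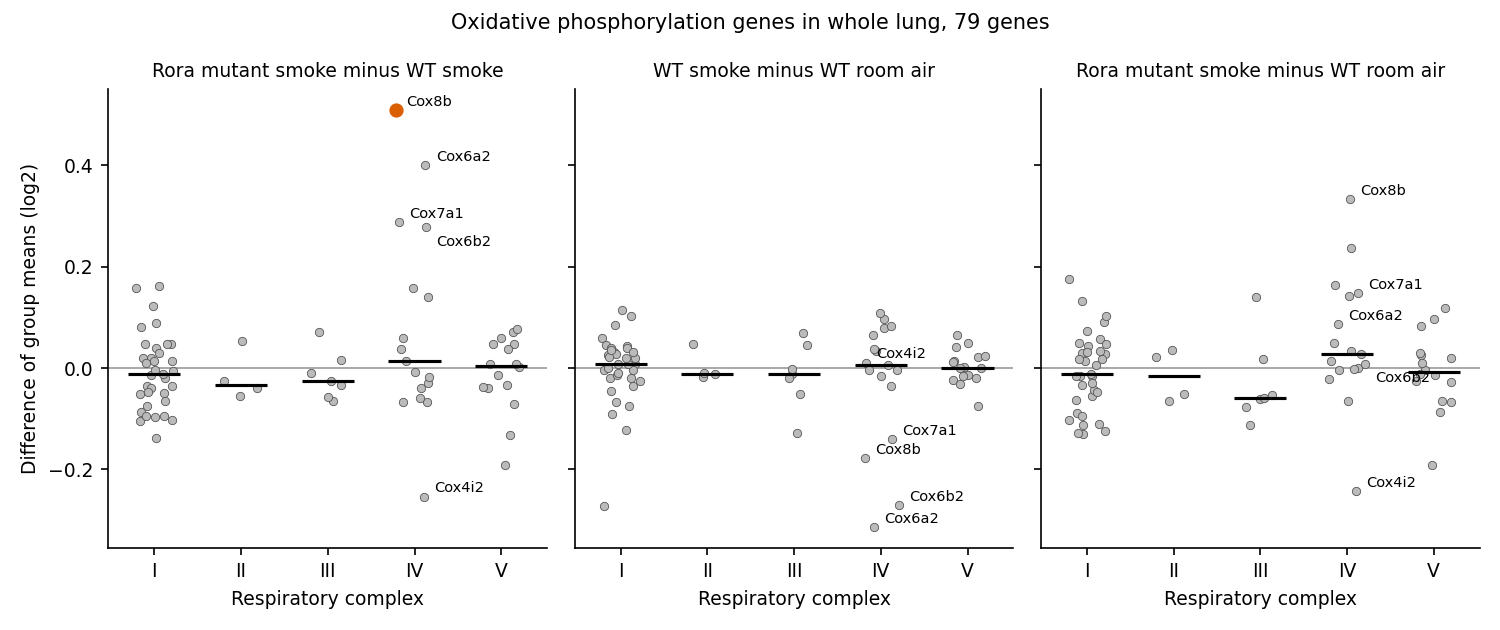
Difference of group means (log2) of the 79 genes by respiratory complex, grouped by family name. The panels show mutant smoke minus WT smoke, WT smoke minus WT room air, and mutant smoke minus WT room air. Points are genes with sideways jitter, bars are medians, and the filled orange point is the gene that passed an adjusted p of 0.05; Cox8b at 0.51 in the first panel is that gene, and the medians of complexes I to V stay between -0.06 and 0.03.

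The comparison of WT smoke with WT room air joins smoke with the difference in sex seen in Xist and Ddx3y. None of the 79 genes passed, against 2.31% of all genes called higher and 2.55% called lower (457 and 506 genes, or 592 and 351 with median normalization). Differences ran from -0.31 (Cox6a2) to 0.11 (Ndufs3), with a median of 0.0019 (all genes, -0.01), and 42 were positive and 37 negative. The arrays did not overlap for Ndufs3, which was higher, and Ndufb5, which was lower, or 2 of 79 genes beside 12.9% of all genes. Ndufb5, an accessory subunit of complex I, had levels of 1.44, 1.33, 1.40 and 1.43 in WT smoke, against 1.53, 1.51, 1.49 and 1.56 in WT room air, a log2 difference of -0.12 (adjusted p = 0.195). At an unadjusted p under 0.05 there were 4 genes, or 5.06%, against 18.3% of all genes: Cox6b2 at -0.27 (adjusted p = 0.140), Cox6a2 at -0.31 (adjusted p = 0.171), Ndufb5 and Ndufs3. In the same comparison 1 of 15 cardiac markers (Mybpc3, by 0.72 on the log2 scale) and 1 of 10 skeletal muscle markers (Myh2, by 1.34) fell. These counts stand beside 2.55% of all genes called lower. A relation of Cox6a2 and Cox6b2 to these markers was not tested. Ndufs8, a core subunit of complex I, had the widest spread of the 79 genes, from -0.09 to 0.77 in WT smoke and from 0.43 to 0.86 in WT room air, and its difference of -0.27 lay within that spread (adjusted p = 0.439).

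The genes on the X chromosome were looked at because the room air arrays went against their label. Ndufa1, a small subunit of complex I, differed by 0.01 between WT smoke and WT room air (adjusted p = 0.966), Ndufb11, another, by 0.06 (adjusted p = 0.739), and Cox7b, of complex IV, by -0.00 (adjusted p = 0.986). In mutant smoke against WT room air they differed by -0.09, -0.02 and -0.02.

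The comparison of mutant smoke with WT room air joins genotype, smoke and the same difference in sex, and shares its arrays with the other comparisons. Again none of the 79 genes passed, although 6.67% of all genes were called higher and 10% lower (limma). These 1322 higher and 1990 lower genes became 2962 higher and 1403 lower with median normalization. At an unadjusted p under 0.05 there were 4 genes, or 5.06%, against 30.8% of all genes. Cox8b came nearest, with a log2 difference of 0.33 (adjusted p = 0.0766), and it passed with slide as a block (0.39, adjusted p = 0.0312). Atp5pb, a subunit of the stalk that holds ATP synthase together, had levels of 4.48, 4.44, 4.42 and 4.44 in mutant smoke, against 4.34, 4.38, 4.30 and 4.28 in WT room air, which do not overlap (0.12, adjusted p = 0.102). Cox8b, Atp5pb and Ndufs4, a complex I subunit, were the 3 of 79 genes whose mutant arrays all lay above the room air arrays, beside 21% of all genes whose arrays did not overlap in either direction. Cox7a2l differed by 0.24 (adjusted p = 0.128), and the median of the 79 genes was 7.8e-05 (all genes, -0.0063).

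The precision of each difference is given by its 95% interval. The intervals are per gene and not adjusted, so a change larger than the half-width could still miss the adjusted threshold. The whole interval lay within a 1.2-fold change in either direction for 62 of 79 genes in mutant against WT smoke, for 64 in WT smoke against WT room air and for 61 in mutant smoke against WT room air. Within 1.5-fold it lay for 76, 78 and 78. The half-width of the interval had a median of 0.157 on the log2 scale. The SD within groups had a median of 0.0974 for the 79 genes and 0.124 for all genes. As 69 of the 79 genes were among the 4957 genes with the highest mean level, the value for those 4957, 0.0892, is the closer match.

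From array to array the genes tended to lie on the same side of their own means. The mean deviation from each gene's own mean was 0.07, -0.00, 0.04 and -0.09 on the mutant smoke arrays, 0.02, -0.06, -0.04 and 0.06 on the WT smoke arrays and 0.01, 0.01, -0.04 and 0.02 on the WT room air arrays. Mutant smoke replicate 1 had 65 of 79 genes above their own mean and replicate 4 had 17, while the group means, 0.00 in mutant smoke, -0.01 in WT smoke and 0.00 in WT room air, differed by less than the SD within groups, 0.07, 0.05 and 0.03. The 80 genes of the cytosolic ribosome deviated by 0.06, 0.02, 0.10 and -0.07 in mutant smoke and by 0.07, -0.10, -0.07 and 0.10 in WT smoke. In WT room air they deviated by 0.02, -0.07, -0.04 and -0.03. Their sign was that of the 79 genes on every WT smoke array, but not on mutant smoke replicate 2 or WT room air replicates 2 and 4.

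**Figure D4:**
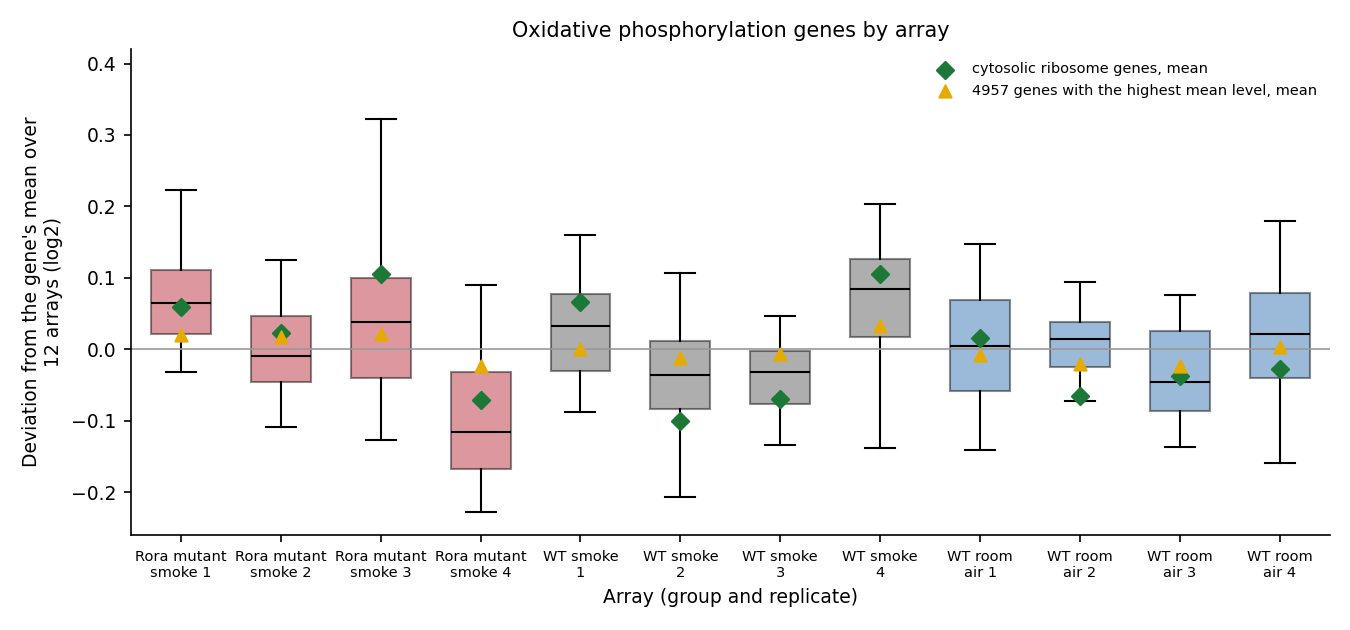
Deviation of the 79 genes from their own mean over 12 arrays (log2), by array (group and replicate). Boxes span the quartiles with the median, whiskers the 5th to 95th percentile, diamonds the mean of the cytosolic ribosome genes and triangles the mean of the 4957 genes with the highest level; mutant smoke replicates 1 and 4 stand at opposite ends, and no group stands apart.

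Other genes of the pathway were counted by list. Of 43 assembly factors, which build the complexes, 1 rose in WT smoke against WT room air (Coa7, by 0.23, limma adjusted p = 0.0318). That is 2.33%, beside 2.31% of all genes called higher. In mutant smoke against WT room air 1 fell (Ndufaf4, by 0.29, adjusted p = 0.00383), or 2.33% beside 10% of all genes called lower. None passed in mutant against WT smoke, with 4 at an unadjusted p under 0.05. Coa7 missed the threshold without any single one of the 8 WT arrays, with a replicate block and with normexp, among other alternatives. Of 78 mitochondrial ribosome genes, Mrpl30 (0.24) and Mrpl45 (0.25) rose in mutant smoke against WT room air, or 2.56% beside 6.67% of all genes. Neither passed in every fit that left out 1 array. None of 19 genes of the citric acid cycle and pyruvate dehydrogenase, and none of the 3 mitochondrial DNA transcripts measured (ND4L, CYTB and COX2), passed in any of the 3 comparisons (limma), and at an unadjusted p under 0.05 there were 0 to 3 of the 19 genes and 0 to 1 of the DNA transcripts. Of 17 regulators of mitochondrial biogenesis, 1 fell in mutant against WT smoke (5.88%, beside 3.56% of all genes called lower). In mutant smoke against WT room air 2 fell (11.8%, beside 10%), and in WT smoke against WT room air 1 fell (5.88%, beside 2.55%). Ppargc1a, the coactivator that drives respiratory chain genes in many tissues, fell in both comparisons with mutant smoke. Its levels were -0.46, -0.49, -0.71 and -0.76 in mutant smoke, against -0.12, -0.29, -0.25 and -0.18 in WT smoke and 0.04, 0.00, -0.21 and -0.38 in WT room air. The mutant arrays lay below all others, by 0.39 on the log2 scale against WT smoke (adjusted p = 0.0434) and by 0.47 against room air (adjusted p = 0.00970). The call against WT smoke was lost with slide as a block (adjusted p = 0.0784), with median normalization (0.0622), with normexp (0.342), with no filter on dim probes (0.0826), with the mean over probes (0.181) and without any of 6 single arrays: mutant replicates 3 and 4 and all WT smoke replicates. Esrrg, a nuclear receptor that acts with it, fell by 0.44 in WT smoke (adjusted p = 0.0126) and by 0.38 in mutant smoke (adjusted p = 0.00949), both against WT room air, and with normexp the mutant difference turned to 0.09 and neither passed. NRF1 and GABPA, whose motifs are shown above, are encoded by Nrf1 and Gabpa, which differed by -0.08 and 0.06 between mutant and WT smoke (adjusted p = 0.422 and 0.563). Of 17 genes of a glycolysis list, 1 rose in mutant smoke against WT smoke (5.88%, beside 2.48% of all genes). It was Pdk4, the kinase that shuts pyruvate dehydrogenase, by 0.98 (adjusted p = 0.00794), and it was lost as a call with normexp (adjusted p = 0.118). In WT smoke against WT room air 1 rose (Aldoa, by 0.28, 5.88% beside 2.31%). In mutant smoke against WT room air 3 rose (17.6%, beside 6.67%): Pdk4 by 1.44, Aldoa by 0.25 and Pdk1 by 0.205. In that comparison, under 18 alternatives, they passed in 18, 10 and 6.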

How the data were processed

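RNA of 12 whole mouse lungs was measured on 1-colour Agilent 4x44K arrays, 4 biological replicates a group per the labels, so p-values measure the spread between these mice. The authors' scanner files (Agilent Feature Extraction 9.5.3.1, per the submitters' processing notes) hold linear intensity, background-subtracted within the array, per the file headers. The same deposited files hold flags (other values, 0 or 1). The authors' deposited table of values holds log2 intensity and was used as an alternative. Probe positions are on mm8, per the file headers.

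Here log2 processed intensity minus the array's 75th percentile was used, with outlier spots dropped and spots of a probe averaged. Probes well above background on at least 4 arrays and valued on at least 3 arrays a group were kept, and the brightest stood for its gene. Symbols were updated through RefSeq. limma 3.58.1 in R 4.3.3 (data.table, version 1.17.8) fitted 1 mean a group on 12 arrays, two-sided, with Benjamini-Hochberg adjustment over all genes. The fit was tested on simulated data. Figures used matplotlib 3.10.9 and pandas 2.3.3 in Python 3.11.15.

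The members and lists were chosen with earlier results of these data known. Named genes were members that passed, the 3 smallest p per complex and comparison, isoform pairs, complex II and X-linked genes, and of other lists those that passed or up to 3 with the smallest p. Of these, the genes described were selected after their values were seen, and some are not reported here. Replicate numbers were not taken as pairs of mice: same-numbered deviations correlated at -0.0966 to 0.217, over 0.1 in 4 of 12 pairs. These correlations cannot settle whether mice were paired, since arrays that shared a number from 1 to 3 also shared a slide. Slides 1 to 3 held 4 arrays each, of all groups. Alternatives are slide or replicate block, quantile and median normalization, normexp with offset 50, the authors' table, other probe filters, mean over probes, the 8 arrays compared, and leaving out each array.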

Additional observations from a re-analysis of the deposited data

Results flagged for a closer look

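Of 114 groups of 4 arrays examined for the named oxidative phosphorylation genes, 5 had an array far from the other 3 (by Dixon's criterion at 95%), and chance flags about 1 in 20 groups. Atp5k, a small subunit of ATP synthase, stood at 2.41 on mutant smoke replicate 4, against 2.74 to 2.80 on the other mutant arrays. Ndufs5, of complex I, stood at 5.19 on the same array, against 5.34 to 5.36, and this array also had the fewest of the 79 genes above their own mean. Ndufb5 stood at 1.51 on mutant smoke replicate 1, against 1.38 to 1.40. Cox7a2 stood at 3.78 on WT smoke replicate 3, against 3.91 to 3.93, and Cox7b at 3.35 on WT smoke replicate 4, against 3.08 to 3.12. None of these genes passed in the main fit of a comparison that held the array. Ndufs5 passed as lower in mutant smoke against WT room air with quantile normalization (limma, adjusted p = 0.0445) and with the authors' table (0.0440).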

How the results depend on the processing

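Among the 79 genes, the count that passed in mutant smoke against WT smoke was 1, and it was 2 with a replicate block (Cox8b, and Cox6a2 with adjusted p = 0.0435), 0 with normexp, 0 with no filter on dim probes, 0 with only the arrays compared, and 0 to 1 when 1 array was left out. In mutant smoke against WT room air it was 0, and 1 with slide as a block (Cox8b), 1 with quantile normalization and 1 with the authors' table (Ndufs5, lower, in both), 5 with median normalization (all higher, Cox8b among them) and 0 to 2 when 1 array was left out (2 without mutant replicate 3). In WT smoke against WT room air it was 0 under every alternative run. The replicate numbers were not taken as pairs of mice in the main fit, and the replicate block left the other 2 counts for the 79 genes at 0. The median change of the 79 genes moved to -0.091 for mutant against WT smoke and to 0.066 for WT smoke against WT room air with normexp, and to 0.077 for mutant smoke against WT room air with median normalization. Over all genes the median was 0.10 for mutant against WT smoke and -0.07 for WT smoke against WT room air with normexp, opposite in sign to that of the 79 genes, and 0.07 for mutant smoke against WT room air with median normalization. Of all genes, 1198 passed in mutant against WT smoke, and 28 with normexp, 687 with no filter, 745 with only the arrays compared and 576 to 1142 without 1 array. In WT smoke against WT room air 963 passed, and 53 with normexp, 564 with no filter and 554 to 768 without 1 array. In mutant smoke against WT room air 3312 passed, and 181 with normexp and 2222 to 3156 without 1 array. Of the listed genes described that had passed, those that turned sign with normexp in mutant smoke against WT room air were Esrrg, to 0.093, Myh2, to 0.19, and Actn3, to 0.086. In mutant against WT smoke Mmp9, from the neutrophil list, turned from -0.51 (limma, adjusted p = 0.00626) to 0.088. The cause was not tested. The 38 named members, not all 79 genes, gave 114 values over the 3 comparisons. Of the 113 values that did not pass, 7 passed under some alternative and 60 turned sign under some. Of 23 genes with several probes, the probes differed in sign for 5 in mutant against WT smoke and for 11 in each other comparison, and a dimmer probe of Ndufb2 passed in WT smoke against WT room air (-0.36, adjusted p = 0.0415). The number of arrays limits the precision.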

Other observations

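Alveolar macrophage genes formed another group that moved in these arrays: 7 of 11 measured markers rose and none fell in mutant smoke against WT smoke, with a median change of 0.49 over the list (all genes, 0.0022), beside 2.48% of all genes called higher. With slide as a block 4 of the 11 passed. In mutant smoke against WT room air 9 rose and none fell, with a median of 0.58, beside 6.67% of all genes called higher. Ciliated cell markers went the other way in mutant smoke against WT room air, where 5 of 9 fell and none rose, with a median of -0.31, beside 10% of all genes called lower. Among club cell markers 3 of 6 fell in the same comparison, and 1 of 6 passed with slide as a block. The oxidative phosphorylation genes had medians of -0.0096 and 7.8e-05 in the comparisons of mutant smoke with WT smoke and with WT room air. How the mix of cell types bears on these medians was not tested.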
